A study of Mus musculus with 12 samples.

Results

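The small RNA array carries a class of probes whose names hold the letters TRF, and all 1767 of them are described here, out of 14192 small RNA probes; the others are 9709 miRNA probes and 2716 probes coded PST. The class was taken by name alone, and a probe was tested where its spot was marked well above background on 3 or more of the 12 arrays. That kept 1672 TRF probes, 1341 of them above background on all 12 arrays and 331 on 3 to 11. Of the 95 TRF probes left out, 20 were above background on no array, 50 on 1 and 25 on 2, while 31 of those kept had exactly 3.

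RNA came from primary mouse aortic smooth muscle cells (MASMC), the contractile cells of the vessel wall, which lose contractile proteins and start to migrate in diseased arteries. Cells were transfected in serum-free medium with siRNA against Oct4 (siOCT4), the pluripotency factor, or with a non-target siRNA (siNT) for 48 h. They were then given either the vehicle DMSO or, at 10 µg/mL, the oxidized phospholipid POVPC, which forms in atherosclerotic plaques, for 24 h. This gave 3 arrays in each of 4 groups, siNT-DMSO and siNT-POVPC from control cells and siOCT4-DMSO and siOCT4-POVPC from knockdown cells; all cells were transfected, no group is untreated, and siRNA lowers a gene for a time only. The sources do not say whether replicates were separate cultures, so p-values measure the spread between these samples, which may be technical.

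The abbreviation tRF is in common use for fragments cut from transfer RNAs or their precursors. Such fragments arise when nucleases cut a tRNA in its anticodon loop or trim it nearer its ends; some are bound by Argonaute proteins and some build up in stressed cells. The sources used here do not spell out the code TRF and give no RNA name, sequence or position for these probes, so no probe is tied to a tRNA below. All 1767 names start with ASMM10SMR20 and end with TV1, and the part between is used as the name. None of the 7 tRNA-cleavage genes or of the smooth muscle and other cell type markers that were looked for was among the 46 of 50 gene probes that could be named, nor was Pou5f1, which encodes OCT4. The cell type and the knockdown could therefore not be checked on these arrays.

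Some arrays stood apart. The median processed signal of the TRF probes, in scanner units with the local background subtracted, was 18.2 to 28.8 on 11 arrays and 82.8 on siOCT4-DMSO replicate 3, where the miRNA probes were also brighter, at 28.4 against 6.34 to 10.0. That array had 1746 TRF probes above background against 1418 to 1624 on the others. It had the same scan date as the siOCT4-POVPC arrays (called slide 2 here), and the other 8 arrays shared another (called slide 1). No slide is named in the sources, so slide stands for scan group here and below. In this sense siOCT4-POVPC and siNT-POVPC share no slide. A second departure concerned 10 TRF probes and is given with the spread below.

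TRF probes carried most of the signal. They made up 12.5% of the small RNA probes but 94.7% ± 0.389 (SD, n = 3) of the summed processed signal in siNT-DMSO, 93.8% ± 0.581 in siNT-POVPC, 93.7% ± 1.86 in siOCT4-DMSO and 94.8% ± 0.068 in siOCT4-POVPC (n = 3 each). Single arrays lay between 91.6% and 95.0%, with the lowest on siOCT4-DMSO replicate 3 and the next at 93.2%. The signal was spread over many probes: between 68 and 79 TRF probes were needed for 50% of the class's signal, and the 10 brightest on an array held 8.18% to 10.4% of it. Brightness also depends on how well each probe hybridizes, so these values describe signal and do not rank amounts of RNA.

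**Figure D1:**
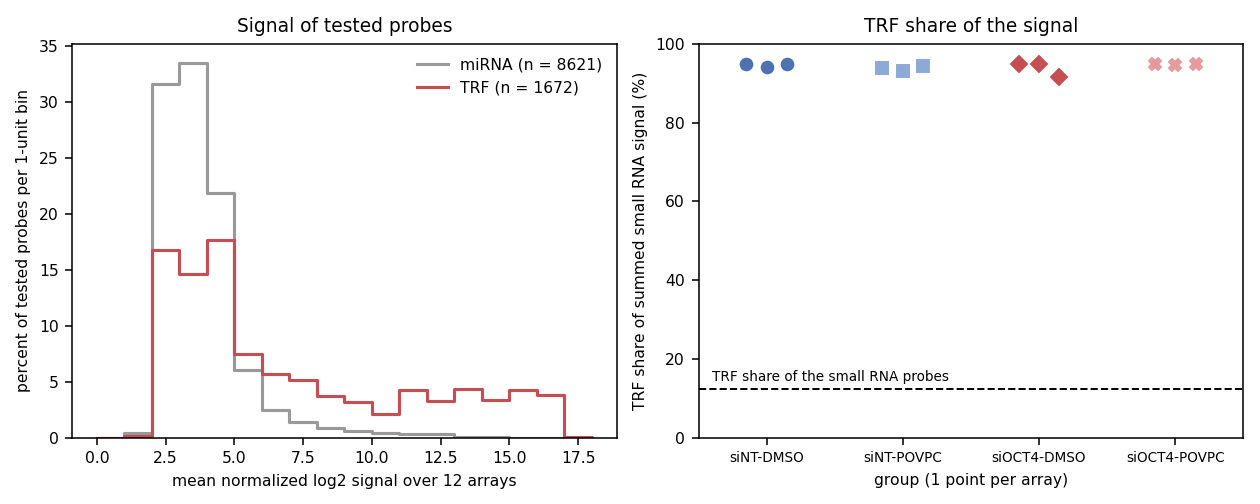
Left, share of the tested TRF (n = 1672) and miRNA (n = 8621) probes in each 1-unit bin of mean normalized log2 signal over 12 arrays. Right, TRF share of the summed small RNA signal, 1 point per array, with the 12.5% share of probes as a dashed line. At 12 or more lie 320 TRF and 34 miRNA probes, and all 12 arrays lie between 91.6% and 95.0%.

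After quantile normalization on the log2 scale the tested TRF probes ran from 1.33 to 17.02, with a median of 5.10 and quartiles of 3.58 and 10.22. The class held a dim majority and a long bright tail: 948 probes (56.7%) lay below 6, and 320 (19.1%) at 12 or more. The tested miRNA probes had a median of 3.47, and 34 of the 8621 lay at 12 or more. Every one of the 100 brightest small RNA probes was of the TRF class, as were 415 of the 500 brightest and 627 of the 1000 brightest. The 10 with the highest mean level were, in order, TRF100009958, TRF100000942, TRF100010014, TRF100005294, TRF100007658, TRF100005324, TRF100004854, TRF100000910, TRF100004428 and TRF100005362, from 17.02 down to 16.69. TRF100009958 ranked first on all 12 arrays, with a processed signal of 1.14e+05 to 1.44e+05. TRF100005362 kept between rank 9 and rank 11.

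Quantile normalization gives a rank the same value on every array. Since TRF probes hold the top ranks, a shift that all bright TRF probes share cannot be seen after it, and their spread is held small. The pooled within-group SD, over probes above background on all 12 arrays, had a median of 0.18 log2 units for the 1341 TRF probes and 0.20 for the 5094 miRNA probes. By level, the median SD of TRF probes was 0.19 between 4 and 6, 0.28 between 6 and 8, 0.25 between 8 and 10, 0.16 between 10 and 12, 0.10 between 12 and 14, and 0.06 from 14 upwards. The miRNA probes of the first 4 of these bins had medians of 0.18, 0.29, 0.20 and 0.17. The 31 miRNA probes between 12 and 14 had one of 0.15, and the 3 from 14 upwards one of 0.27, both above the TRF values. The smallest SDs belonged to TRF100009958 (0.00), TRF100005362 (0.01) and TRF100008403 (0.01), each of them among the bright probes whose values follow their rank.

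The widest spread was taken by within-group SD, a measure that leaves out differences between the groups. TRF100003890 had the largest pooled SD, 2.38. Its normalized log2 signal was 4.71, 11.01 and 4.92 in siNT-DMSO replicates 1 to 3, 10.58, 10.59 and 5.18 in siNT-POVPC, 10.62, 10.94 and 10.49 in siOCT4-DMSO, and 10.46, 10.31 and 10.35 in siOCT4-POVPC. It was thus low on siNT-DMSO replicates 1 and 3 and on siNT-POVPC replicate 3, and high on the other 9 arrays. TRF100003886 (pooled SD 2.09) and TRF100003458 (2.08) had the same 3 low arrays. Of the 1341 TRF probes above background on all 12 arrays, 10 had a pooled SD of 1 or more, and in all 10 the 3 lowest values were on these arrays, below the other 9 by 1.27 to 5.13 log2 units. The same 3 arrays were the lowest in 22 of the 31 miRNA probes with such an SD. These probes and the limit of 1 were chosen after the values were seen, and the array groups they form are not the study's, so no test was made.

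**Figure D2:**
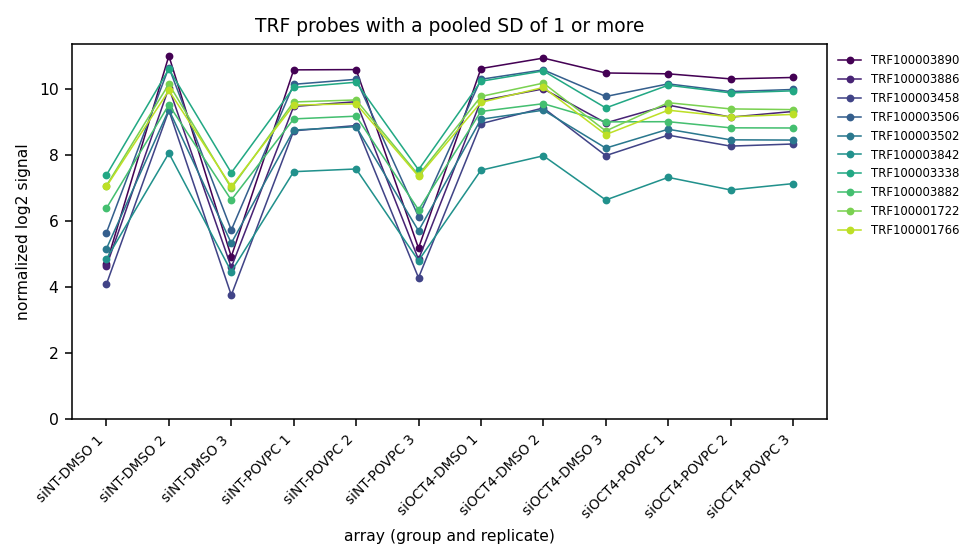
Normalized log2 signal (y axis) of the 10 TRF probes with a pooled within-group SD of 1 or more on each of the 12 arrays (x axis, group and replicate), 1 line per probe. All 10 drop on siNT-DMSO 1, siNT-DMSO 3 and siNT-POVPC 3, by at least 1.27 log2 units below the lowest other array.

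The numbers in the probe names also carried structure. Sorted by number, 1226 of the 1766 steps between neighbouring TRF names were exactly 4, and when a step of 12 or more starts a new run the names form 281 runs of 1 to 61 probes, with a median of 6. In 63 runs there were 9 probes with the same distance between first and last number, 567 probes in all, and the signal changed with the place in the run. Most of their steps were 4, but in many runs 1 number, mostly that at place 5, was shifted. In the runs starting at TRF100009274 and TRF100009362 it was that at place 2, and places 1 and 2 were bright there, so places may not match in all runs. The median normalized level was 4.38, 4.31 and 4.04 at places 1 to 3, 7.70 at place 4 and 9.84 at place 5. It was 4.10, 3.11 and 4.29 at places 6 to 8 and 13.33 at place 9. Place 9 held the brightest probe in 36 of the 63 runs and place 5 in 14, and on single arrays place 9 was brightest in 35 to 38 runs. In the processed signal before normalization, place 9 held 50.7% to 52.1% of the signal of these 567 probes over the 12 arrays, place 5 held 22.1% to 22.6% and place 4 held 12.0% to 12.4%. Places 6 to 8 held at most 0.244%, 0.381% and 0.824%. In each of the 4 groups the medians of places 9, 5 and 4, in that order, were the highest. At place 1 the group medians were 4.46 in siNT-DMSO, 4.54 in siNT-POVPC, 4.13 in siOCT4-DMSO and 4.28 in siOCT4-POVPC. At place 9, where normalization holds bright probes near their rank, they lay between 13.30 and 13.44. What a place stands for is not given in the sources.

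**Figure D3:**
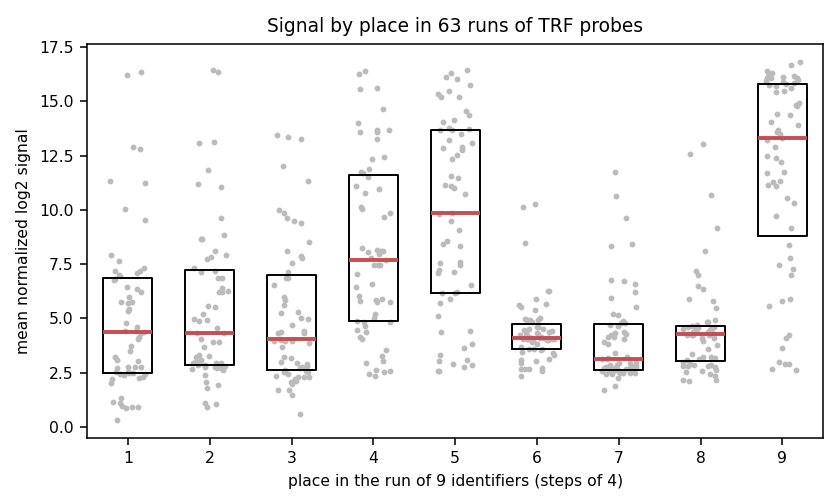
Mean normalized log2 signal over 12 arrays (y axis) of the TRF probes at each place (x axis) of the 63 runs of 9 probe numbers, mostly in steps of 4. Points are probes, boxes span the quartiles and red lines are medians, which peak at place 5 (9.84) and place 9 (13.33).

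The effect of POVPC in wild type SMC was read from siNT-POVPC against siNT-DMSO. A single TRF probe, 1 of 1672, passed the call rule used here, an adjusted p under 0.05 over all 10627 tested small RNA probes and a change of 1.5-fold; 0.113% of all tested probes passed. TRF100005770 measured 2.83, 2.73 and 2.75 in siNT-DMSO and 1.27, 1.32 and 1.51 in siNT-POVPC. The fitted difference was -1.41 (adjusted p = 0.0167, limma), but the probe was above background on 2 of the 3 siNT-DMSO arrays and on no siNT-POVPC array. Over all 12 arrays it was above background on 4, all of them DMSO arrays, so it entered the test through the groups where it is high, and no fold is given for it. The difference was -0.22 in the authors' processed table (adjusted p = 0.578), -0.05 with a normexp background correction and 0 with a floor of 8. The call was also lost when any 1 of the 6 arrays was left out, with all 12 arrays in 1 fit (adjusted p = 0.221) and with the replicate number as a block (adjusted p = 0.113).

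Its neighbours by number, TRF100005774 and TRF100005766, were above background on 6 and 4 DMSO arrays and on no POVPC array, and neither passed the test. They too entered it through the DMSO arrays, so no difference is given. TRF100005774 read 3.54, 4.53 and 4.12 in siNT-DMSO and 2.93, 4.74 and 2.03 in siOCT4-DMSO, and was not well above background on any POVPC array. It was the only TRF probe marked above background on all 6 DMSO arrays and on no POVPC array, a pattern that 8 of all 14192 small RNA probes had. With at least 4 of the 6 DMSO arrays and no POVPC array, the count was 5 TRF probes (0.283%) against 38 small RNA probes (0.268%), a share near that of the whole array. The opposite pattern was found in no small RNA probe, whether TRF or not.

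Among TRF probes above background on all 6 arrays the lowest p was that of TRF100002866, which lay at place 9 of its run. It measured 12.76, 14.04 and 13.41 in siNT-DMSO and 10.45, 10.46 and 10.93 in siNT-POVPC, so the groups did not overlap, and the difference was -2.79 (SE 0.32, adjusted p = 0.0527). In siOCT4 cells it measured 11.87, 13.87 and 11.81 with DMSO and 10.61, 10.46 and 10.45 with POVPC, again with no overlap (-2.01, SE 0.52, adjusted p = 0.242). TRF100004790 followed, with a difference of -1.35 (adjusted p = 0.0838). The rise with the lowest p was TRF100006399, from 4.14, 3.90 and 3.93 to 4.63, 4.59 and 4.54 (difference 0.60, adjusted p = 0.215).

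The effect of OCT4 inactivation under vehicle, siOCT4-DMSO against siNT-DMSO, gave 6 called TRF probes, 4 higher and 2 lower, where 1.43% of all tested probes were called (0.499% higher, 0.932% lower). The TRF share, 0.359%, lay below that of the whole array; whether the shares differ was not tested. Under POVPC, siOCT4-POVPC against siNT-POVPC, 10 TRF probes (0.598%) were called, 6 higher and 4 lower, against 2.53% of all tested probes (1.04% higher, 1.5% lower). These comparisons share no arrays. The lists had 5 probes in common, all moving the same way, which is 83.3% of the first and 50.0% of the second. The overlap of the calls among all tested probes was not set beside this, so it is not read as particular to the class. All called TRF probes except TRF100003142 had a mean level below 6.

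Among the probes called in both comparisons, the rises were in 3 probes with neighbouring numbers, at places 6, 7 and 8 of a run of 9. TRF100000336 measured 2.44, 1.94 and 2.90 in siNT-DMSO, 3.01, 2.55 and 3.17 in siNT-POVPC, 7.60, 7.44 and 6.65 in siOCT4-DMSO, and 7.48, 7.53 and 7.40 in siOCT4-POVPC. Every siOCT4 array thus lay above every siNT array, by a knockdown effect of 4.80 (SE 0.33, adjusted p = 0.000606) with DMSO and 4.56 (SE 0.17, adjusted p = 1.89e-05) with POVPC. It was above background on 1 of the 3 siNT-DMSO arrays and on all of the other 9. TRF100000344 measured 3.06, 2.58 and 2.90 in siNT-DMSO, 2.92, 2.94 and 3.23 in siNT-POVPC, 5.17, 5.73 and 4.82 in siOCT4-DMSO, and 5.95, 5.89 and 5.66 in siOCT4-POVPC. It rose by 2.40 (adjusted p = 0.00485) and 2.81 (adjusted p = 5.78e-05). Normexp, which adds 50 to every signal and so shrinks log2 differences of dim probes, gave 1.25 and 1.35 for TRF100000336, still called, and 0.36 (adjusted p = 0.144) and 0.51 for TRF100000344, both under the 1.5-fold limit. With a floor of 8 the DMSO change of TRF100000344 was 2.22 (adjusted p = 0.0588).

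TRF100000340, between them, measured 3.26, 2.99 and 3.21 in siNT-DMSO, 3.38, 3.18 and 3.28 in siNT-POVPC, 5.16, 5.22 and 4.25 in siOCT4-DMSO, and 5.25, 5.20 and 5.28 in siOCT4-POVPC. It rose by 1.72 (adjusted p = 0.0286) and 1.96 (adjusted p = 6.51e-05). The DMSO call held in 1 of the 6 fits that leave out an array (adjusted p up to 0.139) and was lost with the replicate number as a block (adjusted p = 0.0524), a floor of 8, no filter and normexp (0.26). The POVPC call held without each array and was lost with normexp, where the change (0.31) was under 1.5-fold. The other 6 probes of the run, at places 1 to 5 and 9, did not pass the test in either comparison. TRF100000316, TRF100000320 and TRF100000324 at places 1 to 3 differed with DMSO by -0.45, -0.48 and -0.46 (adjusted p = 0.553, 0.563 and 0.623). With POVPC they differed by -0.04, -0.25 and -0.27. TRF100000328 at place 4 differed by 0.24 with DMSO and 0.01 with POVPC. TRF100000332 at place 5 differed by 0.23 (adjusted p = 0.863) and 0.09 (adjusted p = 0.861), and TRF100000348 at place 9 by -0.15 and 0.09. The difference between the 3 probes and the other 6 was not tested.

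**Figure D4:**
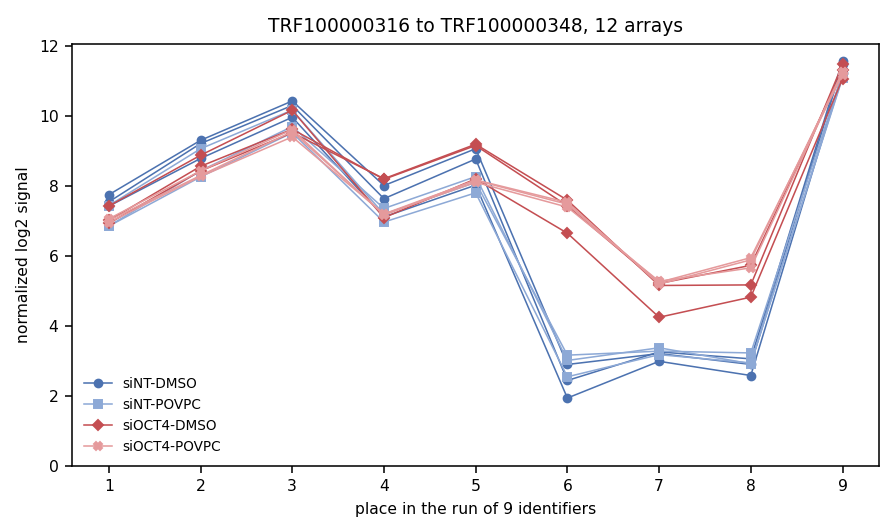
Normalized log2 signal (y axis) of the 9 TRF probes numbered TRF100000316 to TRF100000348 by place in the run (x axis), 1 line per array and 1 colour per group. The 6 siOCT4 arrays lie above the 6 siNT arrays at places 6 to 8, and the groups overlap at places 1 to 5 and 9.

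2 probes fell in both comparisons. TRF100004646 measured 4.78, 4.47 and 4.84 in siNT-DMSO, 5.22, 4.86 and 5.14 in siNT-POVPC, 2.97, 3.07 and 2.59 in siOCT4-DMSO, and 2.58, 2.60 and 2.42 in siOCT4-POVPC. It fell by 1.82 with DMSO (SE 0.18, adjusted p = 0.00377). With POVPC it was above background on no siOCT4 array, so the fall there is at least 4.78-fold (adjusted p = 6.96e-05). TRF100004466 measured 4.20, 4.25 and 4.16 in siNT-DMSO, 5.14, 4.02 and 4.40 in siNT-POVPC, 3.34, 2.72 and 2.58 in siOCT4-DMSO, and 2.72, 2.81 and 2.01 in siOCT4-POVPC. It fell by 1.32 (adjusted p = 0.0327) and by 2.01 (adjusted p = 0.0327), and was above background on 1 of the 3 siOCT4-POVPC arrays. Both calls of TRF100004466 held in 1 of the 6 fits that leave out an array and was lost with the replicate number as a block (adjusted p = 0.0544 and 0.0510). With normexp TRF100004646 differed by -0.21 and -0.35 and TRF100004466 by -0.14 and -0.24, all under 1.5-fold.

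TRF100003142 was called with DMSO alone. It measured 7.69, 8.08 and 7.71 in siNT-DMSO, 7.95, 7.88 and 7.47 in siNT-POVPC, 8.78, 8.97 and 8.81 in siOCT4-DMSO, and 7.92, 7.75 and 7.81 in siOCT4-POVPC. The siOCT4-DMSO arrays lay above the other 9, with a rise of 1.02 over siNT-DMSO (SE 0.16, adjusted p = 0.0267). The call held in 1 of the 6 fits that leave out an array (adjusted p up to 0.152) and in 6 of the 12 other alternatives. It was lost with either 75th percentile scaling, centring on the TRF median, a floor of 8, no filter and slide as a block. With POVPC the knockdown difference was 0.06 (adjusted p = 0.930). Whether the knockdown effects differ is the difference of the POVPC effects, which was -0.97 (SE 0.22) with an adjusted p of 0.785.

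With POVPC alone, 5 probes were called. TRF100006399 measured 4.63, 4.59 and 4.54 in siNT-POVPC and 3.45, 3.21 and 3.18 in siOCT4-POVPC and fell by 1.31 (adjusted p = 0.000941). TRF100006618 measured 4.96, 4.69 and 5.01 against 3.45, 3.37 and 3.67 and fell by 1.39 (adjusted p = 0.00201). With DMSO these differed by -0.59 (adjusted p = 0.402) and -0.82 (adjusted p = 0.206), the same way but short of the threshold.

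The rises were TRF100007810, TRF100003286 and TRF100010058. TRF100007810 measured 3.49, 3.26 and 3.28 in siNT-POVPC and 4.73, 4.82 and 4.96 in siOCT4-POVPC and rose by 1.49 (adjusted p = 0.000616), with a DMSO difference of 1.00 (adjusted p = 0.0533). TRF100003286 rose by 0.87 (adjusted p = 0.0124) and TRF100010058 by 0.88 (adjusted p = 0.00877), with DMSO differences of 0.78 (adjusted p = 0.0592) and 0.74 (adjusted p = 0.0920). These calls held in 3 and 4 of the 6 fits that leave out an array and were lost with the replicate number as a block (adjusted p = 0.0547 and 0.0730). With normexp all 5 probes lost their calls, with differences of -0.23 to 0.31 that were under 1.5-fold. In its run TRF100003286 is at place 6 of 9, and TRF100010058 at place 6 of 8. The difference between the knockdown effects with POVPC and with DMSO was not called for any of the 5 (lowest adjusted p = 0.785).

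**Figure D5:**
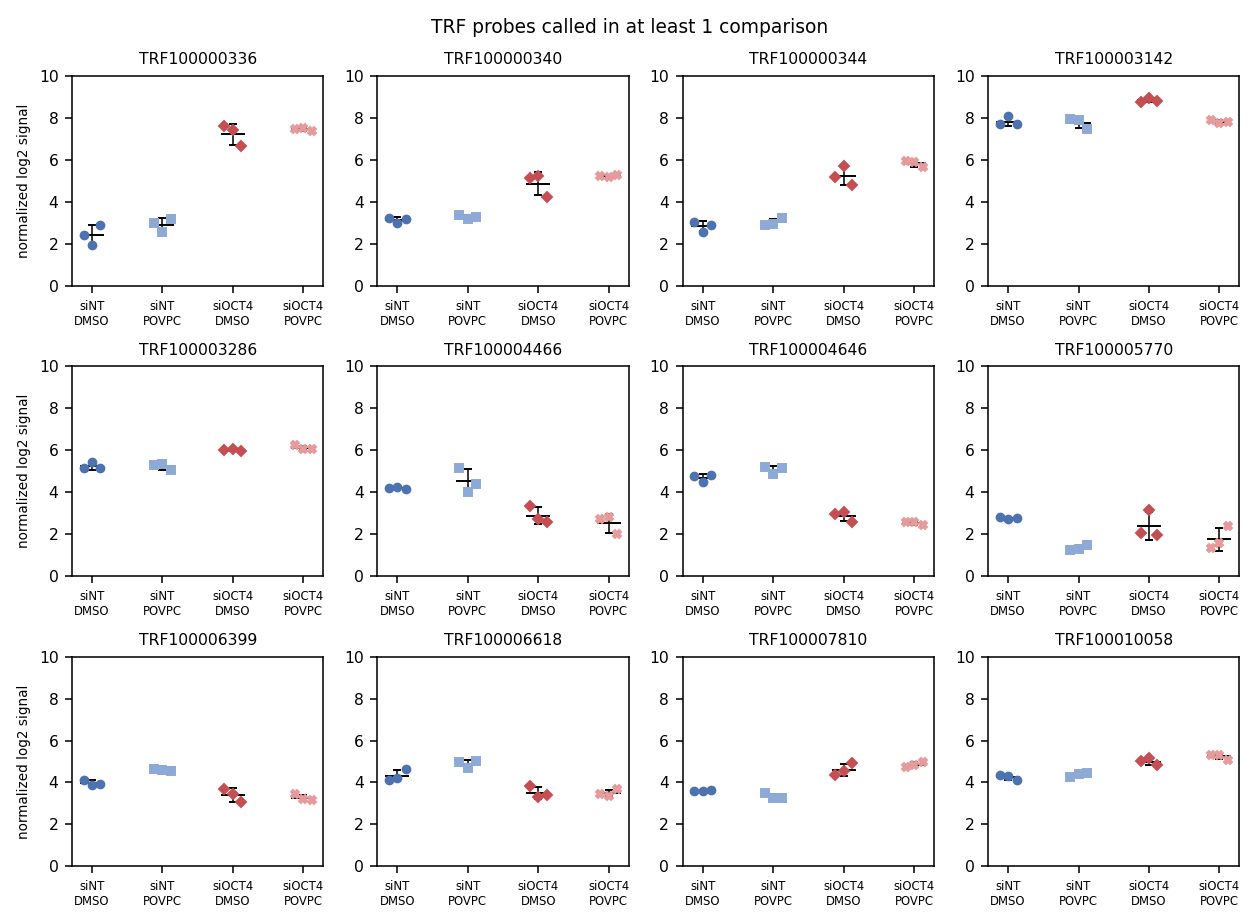
Normalized log2 signal (y axis) in the 4 groups (x axis) of the 12 TRF probes called in at least 1 comparison. Points are arrays, and black bars the mean and SD of 3 arrays. TRF100000336, TRF100000340 and TRF100000344 are higher on all 6 siOCT4 arrays than on any siNT array, and TRF100004646 and TRF100004466 are lower.

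Slide, known only as scan group, and treatment group cannot be told apart in the POVPC comparison, since siNT-POVPC lies in slide 1 and siOCT4-POVPC in slide 2. On slide 1 alone, which leaves siOCT4-DMSO replicates 1 and 2 against siNT-DMSO, the change was 5.09 for TRF100000336 (adjusted p = 0.00101), 2.61 for TRF100000344 (adjusted p = 0.00621), 2.03 for TRF100000340 (adjusted p = 0.00254) and -1.68 for TRF100004646 (adjusted p = 0.00789). These 4 were called there, which for TRF100000340 is the 1 fit without an array that keeps its call. TRF100003142 (1.05, adjusted p = 0.0693) and TRF100004466 (-1.17, adjusted p = 0.0821) were not. Without siNT-DMSO replicate 2 the DMSO count rose from 6 to 23, 22 of them higher, and these included all 10 probes that were low on siNT-DMSO replicates 1 and 3. Without siNT-DMSO replicate 1 or replicate 3 it fell to 3. These counts are of TRF probes alone, with no share of all tested probes set beside them, and are not read as a trait of the class.

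The effect of POVPC in OCT4 deficient SMC, siOCT4-POVPC against siOCT4-DMSO, gave 0 called TRF probes in limma, as for all tested probes (0%). At an unadjusted p under 0.05 there were 171 TRF probes, 72 higher and 99 lower, or 10.2% against 12.8% of all tested probes. The methods' t-test gave 28 TRF probes at an unadjusted p and 1.5-fold, with no share of all tested probes set beside it, and 0 after adjustment. The lowest adjusted p was that of TRF100003142, 0.142, for a difference of -1.03 (SE 0.12) with no overlap. The neighbouring TRF100003138 measured 8.30, 8.52 and 8.26 with DMSO and 7.77, 7.69 and 7.67 with POVPC (difference -0.65, adjusted p = 0.184). The rise with the lowest p was TRF100000579, from 4.16, 4.07 and 3.76 to 4.68, 4.57 and 4.68 (0.64, adjusted p = 0.224).

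With slide as a block the same comparison did give called TRF probes, in either direction. Their count is not read as an effect of POVPC. The effect then rests on siOCT4-DMSO replicate 3 alone, the bright array, as the only DMSO array on slide 2. Without that array 0 TRF probes were called.

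The difference of the POVPC effects between siOCT4 and siNT cells, fitted over all 12 arrays, gave 0 called TRF probes and 0 called probes in all (0%). At an unadjusted p under 0.05 there were 79 TRF probes (4.72%) against 5.31% of all tested probes. No adjusted p in the class was under 0.785. The lowest p among rises belonged to TRF100007979, whose POVPC difference was -0.30 in siNT cells and 0.63 in siOCT4 cells. With slide as a block TRF probes were called in this difference, again resting on siOCT4-DMSO replicate 3.

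The class as a whole moved little after quantile normalization. The median log2 difference of the 1672 tested TRF probes was -0.02 for POVPC in siNT cells, -0.01 for knockdown with DMSO, -0.02 for POVPC in siOCT4 cells and 0.01 for knockdown with POVPC. Over all tested probes it was -0.00, 0.03, -0.03 and 0.01. Other scalings gave other directions. Scaling on the 75th percentile of all probes gave TRF medians of 0.11, -0.24, 0.25 and -0.02, and medians over all tested probes of 0.07, -0.02, 0.09 and -0.01. Centring on the TRF median gave -0.12, -0.04, 0.03 and 0.19 for TRF and -0.15, 0.18, -0.13 and 0.20 for all tested probes. Scaling on the 75th percentile of probes above background on all arrays gave -0.02, -0.16, 0.13 and 0.06 for TRF and -0.05, 0.05, -0.03 and 0.07 for all tested probes.

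On this last scaling the bright and dim TRF probes parted. For knockdown with DMSO the 320 probes at 12 or more had a median difference of -0.51 and the 948 below 6 one of 0.06. For POVPC in siOCT4 cells the medians were 0.72 and -0.08. The median of the 320 bright probes was 13.55 on siOCT4-DMSO replicate 3 and 14.32 to 14.94 on the other arrays. Without that array the bright medians were -0.15 and 0.37. For POVPC in siNT cells they were 0.01 for bright and -0.08 for dim probes, and for knockdown with POVPC 0.17 and 0.05.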

How the data were processed

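Total RNA was labelled with Cy3 by ligation at its 3′ ends and hybridized to 12 one-colour Arraystar mouse small RNA arrays. Intensity values of each spot, read by Agilent Feature Extraction 11.0.1.1, are in the scanner files the authors deposited: the processed signal, with local background subtracted, and median and background signals, not normalized between arrays. The series table deposited by the authors holds log2 values, quantile-normalized per the study's methods, and served as an alternative. Other deposited columns used were the flags for signal well above background and for outlier spots.

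Groups and replicate numbers came from each sample's source name; some sample descriptions repeat another group's wording and were not followed. Outlier spots, 2 of them TRF spots on siNT-POVPC replicate 3, were left out. The processed signal was quantile-normalized over the 12 arrays, set to at least 1 and taken to log2. The study's methods name quantile normalization; the floor of 1 and the order of steps were chosen here. Probes above background on at least 3 arrays were tested with limma 3.58.1 in R 4.3.3, on the 6 arrays of a comparison (12 for the difference of the POVPC effects), with Benjamini-Hochberg adjustment over all 10627 small RNA probes tested, not over the class. A call needed an adjusted p under 0.05 and 1.5-fold. An exact permutation test of 3 against 3 cannot fall below 0.1 and was not used. A bound sets a group above background on all 3 arrays against the lowest signal well above background on each array of the other. The number of arrays limits the precision. The fit was tested on simulated data.

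Named probes were every called TRF probe (up to 10 a direction), those with the lowest p among probes above background on every array of a comparison (up to 5 rises and 5 falls), the 10 brightest and the 3 with the largest and smallest pooled SD; of these the lowest-p probes are given and the rest counted. Neighbours by number, other members of a run and the probes above background with DMSO alone were chosen after their values were seen. The class, lists and tests were chosen with earlier results of these data known. Alternatives were other scalings, floors, filters, call rules, blocks, an equal-variance t-test, a normexp background correction (offset 50) and leaving out each array. The paper's methods give a p threshold for small RNAs but name no test, so the t-test was chosen here. The files hold no mean signal column, so the median signal replaced it in normexp and in the alternative signal share. Slides were told apart by scan date alone, as no slide is named.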

Additional observations from a re-analysis of the deposited data

How the results depend on the processing

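Correlations of same-numbered deviations ran from -0.44 to 0.62 over the comparisons. With 3 of them per comparison they cannot settle whether the replicate numbers pair the samples. With the replicate number as a block the TRF counts were 1, 4, 0, 7 and 0. They are for POVPC in siNT cells, knockdown with DMSO, POVPC in siOCT4 cells, knockdown with POVPC and the difference between the effects of POVPC. This is the order used below. The counts in this paragraph are of TRF probes alone, with no share of all tested probes set beside them. The block ended the calls of TRF100005770, of TRF100000340 and TRF100004466 with DMSO, and of TRF100003286, TRF100010058 and TRF100004466 with POVPC, so its 1 call for POVPC in siNT cells is another probe. Leaving out 1 array gave counts of 0 to 1, 3 to 23, 0 to 0, 7 to 11 and 0 to 0, medians of -0.05 to -0.01, -0.02 to -0.01, -0.02 to -0.00, -0.01 to 0.03 and -0.01 to 0.03, and signal shares of 94.5% to 94.9% in siNT-DMSO, 93.5% to 94.0% in siNT-POVPC, 93.2% to 94.8% in siOCT4-DMSO and 94.8% to 94.8% in siOCT4-POVPC.

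For POVPC in siNT cells, where 1 probe was called, the count was 5 with the 75th percentile of probes above background. There 37 of all tested probes were called. It was also 5 with centring on the TRF median, where 59 of all tested probes were called. It was 2 with PST and TRF probes only. It was 0 with normexp, a floor of 8, the filter of 12 arrays, no filter, all arrays in 1 fit or the adjusted t-test. For knockdown with DMSO (6 called) it was 2 with normexp or no filter and 3 with a floor of 8. It was 12 with all arrays in 1 fit and 0 with the adjusted t-test. For POVPC in siOCT4 cells (0 called) it was 1 with the 75th percentile of all probes, a floor of 8 or all arrays in 1 fit, 3 with normexp and 265 with slide as a block. For knockdown with POVPC (10 called) it was 16 with centring and 1 with normexp. For the difference of the POVPC effects (0 called) it was 137 with slide as a block. At an unadjusted p with 1.5-fold the counts were 19, 50, 55, 26 and 58, and with no fold threshold, an alternative chosen after seeing the data, 69, 114, 171, 128 and 79. The t-test at an unadjusted p gave 13, 29, 28 and 19 for the first 4 comparisons. The counts with slide as a block rest on siOCT4-DMSO replicate 3 alone, the bright array and the only DMSO array on slide 2. They are therefore not read as effects of POVPC. Except for the counts of 5, all counts in this paragraph are of TRF probes alone, with no share of all tested probes set beside them.

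The class medians moved by more than the spread between arrays under 75th percentile scaling of all probes, to 0.11, -0.24, 0.25 and, for the difference of the effects, 0.15. Under that of probes above background they moved to -0.16 for knockdown with DMSO, 0.13 for POVPC in siOCT4 cells and 0.16 for the difference. Centring on the TRF median moved them to -0.12 for POVPC in siNT cells, 0.19 for knockdown with POVPC and 0.16 for the difference. The siOCT4-POVPC signal share was 94.5% from the median signal minus background. Apart from the construction of fewer tested probes or samples, the cause was not tested. No called probe changed direction under any alternative, though TRF100005770 stood at 0 with a floor of 8; of 288 alternative values for the called probes, 215 kept the call. Collapsing runs of 5 consecutive identifiers was not run, because the numbers mostly step by 4. Slide as a block gave no value for POVPC in siNT cells or knockdown with POVPC.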

Other observations

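The changes of probes with neighbouring numbers were set beside each other, as a description of probes that share arrays and may share sequence. Over 1114 pairs of tested TRF probes a step of 4 apart, Pearson's r of the log2 differences was 0.29 for POVPC in siNT cells, 0.41 for knockdown with DMSO, 0.24 for POVPC in siOCT4 cells and 0.35 for knockdown with POVPC. Over 246 pairs made of the last probe of a run and the first of the next it was 0.09, 0.01, 0.04 and 0.02. Spearman's rho was 0.27, 0.31, 0.19 and 0.30 for the first set of pairs and 0.07, -0.01, 0.01 and 0.09 for the second. The sets were not matched by level, and normalization holds bright probes near their rank, so they are not compared. In the 63 runs of 9, the median difference for knockdown with DMSO was -0.19 at place 4, -0.11 at place 5, 0.15 at place 6 and 0.09 at place 7. At place 9 it was -0.01. With POVPC the knockdown medians at places 4 to 7 were -0.02, 0.00, 0.08 and 0.03. The runs were defined after the data were seen, and no test was made.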
